A study of Homo sapiens with 8 samples.

Results

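The nucleosome remodeling and deacetylase complex, NuRD, was followed through the RNA-seq libraries by 10 of its genes, MTA1, MTA2, MTA3, HDAC1, HDAC2, RBBP4, RBBP7, GATAD2A, GATAD2B and MBD3. They were chosen by name as the subunits other than the CHD remodelers, and each was found by its Ensembl identifier among the 57773 genes of the count files. All 10 passed the filter on low counts, which left 23474 genes to be tested. The study asked how HERVH RNA, transcribed from a family of endogenous retroviral elements that is active in pluripotent cells, affects the chromatin remodeler CHD7. RNA was sequenced from 8 libraries of the human embryonic stem cell (hESC) line H9, with 2 replicates in each of 4 groups.

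The WT group was untreated and carried wild type CHD7 with an HA tag. The CHD7 knockout (CHD7 -/-) cells were untreated and came from genome editing with Cas9 and the picking of colonies. The HERVH knockdown cells had the tagged wild type CHD7 of the WT group and were harvested 24 h after transfection with LNA-GapmeRs, antisense oligonucleotides that direct RNase H to cut their target RNA. The HERVH element deleted cells were untreated and lacked an HERVH element on chromosome 2, again after editing and colony picking. The knockdown cells were plated as single cells with a ROCK inhibitor and transfected, and the WT libraries were labelled untreated, so transfection and knockdown cannot be told apart here. The labels do not say whether the replicates of a group were separate cultures or clones, and p-values measure the spread between these libraries, which may be technical. All 3 comparisons with WT shared the same 2 WT libraries.

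NuRD joins nucleosome remodeling to histone deacetylation in a single assembly. The MTA proteins are the scaffold that holds the deacetylases HDAC1 and HDAC2, and the WD-repeat proteins RBBP4 and RBBP7 bind histones. MBD3, which does not bind methylated CpG well in mammals, and the p66 proteins GATAD2A and GATAD2B connect this deacetylase module to a CHD remodeler, most often CHD4. In pluripotent cells the complex is known for tuning the expression of pluripotency genes and for permitting exit from self-renewal. HDAC1, HDAC2, RBBP4 and RBBP7 also serve in other chromatin complexes.

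Between 14802049 and 23156445 reads per library were counted on genes, and 3 counts, taken as the floor of detection, came to between 0.128 and 0.218 counts per 1000000 (CPM). CHD7 stood at 651.0 and 649.5 CPM in WT and at 197.3 and 197.2 CPM in the knockout, which gave a log2 fold change of -1.72 (SE 0.144, FDR 2.25e-05). All 10 markers of undifferentiated hESCs were above the floor in every group, with summed levels between 6195 and 7437 CPM. The summed neural markers were 53.8 and 55.9 CPM in WT, 27.4 and 25.7 CPM in the CHD7 knockout and 20.7 and 20.6 CPM after HERVH knockdown. In the deleted cells they were 55.1 and 57.2 CPM. MAP2 and STMN2 were lower in the knockout and the knockdown. Their log2 fold changes were -0.95 and -1.32 for MAP2 (FDR 0.0168 and 0.00603) and -2.00 and -2.35 for STMN2 (FDR 0.00522 and 0.00605). PAX6 was at -0.12 and -0.45 (FDR 0.971 and 0.658). SOX1 and NEUROD1 did not pass the filter on low counts. They were at 0 in the CHD7 knockout libraries, but WT held only 0 and 2 counts of SOX1 and 5 and 1 of NEUROD1. Endoderm markers summed to 2.12 and 5.80 CPM in WT, 2.17 and 1.56 CPM in the knockout, 12.2 and 12.0 CPM in the knockdown and 5.34 and 5.94 CPM in the deleted cells. Among them FOXA2 was lower than WT in the knockout (log2 fold change -2.64, FDR 0.0317) and at 1.66 (FDR 0.0719) in the knockdown. The WT replicates of FOXA2 lay apart, at 1.39 and 4.96 CPM, and the knockout was at 0.324 and 0.699 CPM. AFP, the other endoderm marker tested, was at 0.92 (FDR 0.619) in the knockout and 1.68 (FDR 0.113) in the knockdown. Mesoderm markers summed to between 1.59 and 2.86 CPM in every library. Fibroblast markers summed to 465.7 CPM in HERVH knockdown replicate 2 and to between 145.3 and 251.6 CPM in the other libraries, nearly all of it COL1A1 and COL1A2, since DCN and LUM were at or under the floor. The part of these markers in the values below was not tested, and in bulk RNA fewer cells of a type and less RNA per cell cannot be told apart. The HERVH knockdown replicates differed most, with a median SD of 0.254 log2 CPM per gene against 0.0821 to 0.125 in the other groups.

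To compare levels between genes, counts were divided by exon length and given as reads per kilobase per 1000000 reads (RPKM). All 10 genes were well expressed in WT, from the 66.5th percentile of 14862 protein-coding genes for MBD3 to the 94.8th for MTA2. MTA2 was at 38.0 RPKM, GATAD2A at 37.3 RPKM and RBBP7 at 36.9 RPKM, and these highest 3 overlapped between their libraries. RBBP4 at 32.1 RPKM and HDAC1 at 31.6 RPKM overlapped each other and lay above MTA1 at 30.2 RPKM. HDAC2 followed at 26.6 RPKM. The low end held MTA3 at 15.9 RPKM, GATAD2B at 10.4 RPKM and MBD3 at 7.90 RPKM, none of which overlapped its neighbor in the order. The place of MTA1 depended on the length used, since its annotated exons cover 6966 bases and its longest transcript 2888. With the longest transcript in place of all exons MTA2 made 34.1% rather than 45.2% of the MTA family in WT, and MTA1 47.2% rather than 35.9%.

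**Figure D1:**
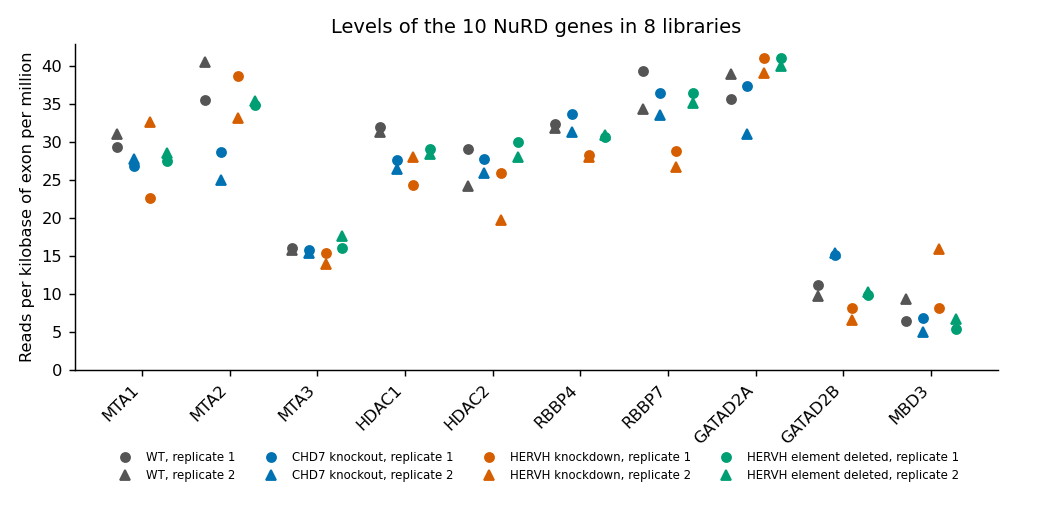
Level of each NuRD gene in each of the 8 libraries, in RPKM, with circles for replicate 1 and triangles for replicate 2. MTA3, GATAD2B and MBD3 sit low in every group, GATAD2B is highest in both CHD7 knockout libraries, and the knockdown replicates of MTA1 and MBD3 lie far apart.

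None of the 10 genes was a differentially expressed gene (DEG) against WT in any condition, neither at the study's thresholds, an FDR below 0.01 and a 2-fold change, nor at an FDR below 0.05. DEGs at the stricter thresholds made up 0.571% of all genes tested in CHD7 knockout cells, 0.217% after HERVH knockdown and 0.0298% in HERVH element deleted cells. At an FDR below 0.05, 1.19% of genes were up and 0.613% down in the knockout, 0.618% up and 1.53% down in the knockdown, and 0% up and 0.0724% down in the deleted cells. At these rates a list of 10 genes would hold few calls or none. Unadjusted p-values below 0.05 were found for 2 of 10 members in the CHD7 knockout, where 10.9% of all genes had one, for 3 of 10 in the knockdown, against 19% of all genes, and for 0 of 10 in the deleted cells, against 2.63%. DESeq2 also called 0 members in each of the 3 comparisons. The median log2 fold change of the 10 genes was -0.10 in the knockout, -0.16 in the knockdown and -0.06 in the deleted cells, and over all tested genes it was -0.01, 0.04 and -0.02.

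**Figure D2:**
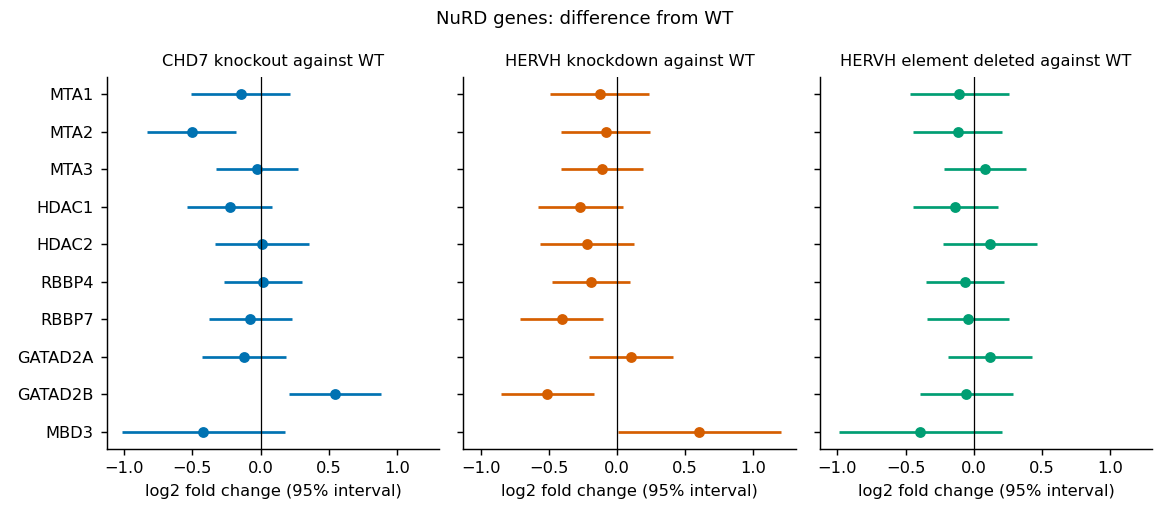
Log2 fold change of each NuRD gene against WT, as a point with its 95% interval from edgeR, in the 3 comparisons, which share the WT libraries. GATAD2B lies above 0 in the CHD7 knockout and below it after HERVH knockdown, MTA2 lies below 0 in the knockout, and every point is within 0.604 of 0.

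By log2 fold change 7, 8 and 7 of 10 members were lower than WT in the knockout, knockdown and deleted cells. Over all genes tested 48.5%, 52.9% and 46.9% were higher. The members whose libraries did not overlap those of WT were also more often below it than above. These comparisons share the WT libraries, and whether the members exceeded all genes was not tested. In the CHD7 knockout 1 of 10 members lay wholly above WT, beside 21.5% of all genes, and 4 lay wholly below, beside 22.4%. After HERVH knockdown 1 lay above, beside 22.5% of all genes, and 5 lay below, beside 22.3%. In the deleted cells 2 lay above, beside 17.7%, and 4 lay below, beside 20.3%. HDAC1 was the only member below WT without overlap in all 3 conditions. The share of all genes that were so in all 3 was not counted.

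MTA1 (chr14:105886157-105937066, + strand, GRCh37), the founding member of the metastasis-associated family and a scaffold of the complex, did not pass the test in any condition. It was at 204.4 and 216.2 CPM in WT and at 186.9 and 193.5 CPM in the CHD7 knockout. The HERVH knockdown libraries stood at 157.5 and 227.7 CPM, and the deleted cells at 191.5 and 199.0 CPM. The knockout and deleted libraries were all just below WT, while the knockdown libraries straddled it. Log2 fold changes were -0.14 in the knockout (SE 0.169, 95% interval -0.51 to 0.22, FDR 0.874), -0.13 in the knockdown (95% interval -0.49 to 0.24, FDR 0.722) and -0.11 in the deleted cells (95% interval -0.47 to 0.26, FDR 1). A 2-fold change was therefore outside each interval. Without knockdown replicate 2 the knockdown value became -0.43, and without replicate 1 it became 0.06. Each of these fits held 1 knockdown library, so no FDR is given. After a correction for GC content the knockout and deleted values turned to 0.05 and 0.04, and the knockdown value grew to -0.35 (FDR 0.108).

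MTA2 (chr11:62360686-62369337, - strand), the scaffold with the highest level per exon length in every group but the CHD7 knockout, had its lowest values in the CHD7 knockout. It was at 151.5 and 172.7 CPM in WT and at 122.0 and 106.4 CPM in the knockout. The knockdown gave 164.8 and 141.3 CPM and the deleted cells 148.3 and 150.7 CPM. The knockout libraries lay below the other 6. The log2 fold change in the knockout was -0.50 (SE 0.152, 95% interval -0.83 to -0.18, unadjusted p 0.00533 and FDR 0.138 by edgeR), and the other conditions were at -0.08 and -0.12. The knockout value passed the FDR of 0.05 where the fit held only the 4 libraries compared (-0.51, FDR 0.0198) but not after GC correction (-0.42, FDR 0.158). The estimate of spread was shared by all groups in the fit, so libraries outside the comparison also moved its FDR. With a library left out MTA2 was between -0.60 and -0.39 in the knockout. Its 185 neighbors within 5 Mb had a median of -0.11 in the same comparison.

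MTA3 (chr2:42721709-42984087, + strand), the scaffold with the lowest level, was at 169.0 and 166.8 CPM in WT, 166.7 and 162.4 CPM in the CHD7 knockout, 163.1 and 147.3 CPM after knockdown and 169.4 and 185.9 CPM in the deleted cells. These values spanned a narrow range, and its log2 fold changes were -0.03, -0.11 and 0.08 in that order of conditions. It lies on chromosome 2, the chromosome of the deleted HERVH element, but far from that element.

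HDAC1 (chr1:32757684-32799236, + strand), a catalytic deacetylase, was lower than WT in every other library. It was at 126.5 and 123.9 CPM in WT and at 109.3 and 104.9 CPM in the CHD7 knockout. The knockdown stood at 96.4 and 111.2 CPM and the deleted cells at 115.1 and 112.7 CPM. Log2 fold changes were -0.23 (FDR 0.683), -0.27 (FDR 0.332) and -0.14 (FDR 1), so that the difference from WT did not pass the test in any condition. A transcribed processed copy, HDAC1P2, held up to 9.64% as many counts, so reads may be split between the pair.

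HDAC2 (chr6:114254192-114332472, - strand), the paralogous deacetylase, was at 445.2 and 371.7 CPM in WT, 425.3 and 396.4 CPM in the CHD7 knockout, 396.6 and 302.7 CPM after knockdown and 459.7 and 428.5 CPM in the deleted cells. The range of the WT replicates held both knockout libraries. Its log2 fold changes were 0.01, -0.22 and 0.12. The knockdown value became -0.48 without knockdown replicate 1 but -0.05 without replicate 2 and -0.05 (FDR 0.837) after GC correction. Per exon length HDAC1 made 54.3% ± 2.80 (SD, n = 2) of the pair in WT and 50.2% ± 0.523 in the knockout, 53.6% ± 7.25 in the knockdown and 49.8% ± 0.860 in the deleted cells.

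RBBP4 (chr1:33116743-33151812, + strand), a histone chaperone shared with CAF-1 and PRC2, was at 306.5 and 301.4 CPM in WT, 319.0 and 296.5 CPM in the CHD7 knockout, 267.2 and 265.7 CPM after knockdown and 289.9 and 292.6 CPM in the deleted cells. The knockdown replicates were close to each other and lower than all other libraries, with a log2 fold change of -0.19 (95% interval -0.48 to 0.10, FDR 0.465). The knockout and deleted values were 0.02 and -0.06.

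RBBP7 (chrX:16857406-16888485, - strand), its close paralog, was also lowest after HERVH knockdown. It was at 288.9 and 252.2 CPM in WT, 267.6 and 245.9 CPM in the CHD7 knockout and 267.4 and 257.9 CPM in the deleted cells. The knockdown libraries stood at 211.5 and 196.3 CPM, lower than the other 6. The log2 fold change there was -0.41 (SE 0.141, 95% interval -0.71 to -0.10, unadjusted p 0.0123 and FDR 0.146 by edgeR). It was -0.52 without knockdown replicate 1 and -0.36 without replicate 2. TXLNG overlaps RBBP7 on the opposite strand with up to 110% as many counts, and the strand setting of the counting is not given in the sources used here, so reads of the overlap cannot be assigned with certainty.

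The p66 paralogs GATAD2A and GATAD2B, alternative subunits that bridge the deacetylase module to the remodeler, stood in different proportions in the CHD7 knockout and HERVH knockdown cells. Their promoters are shown because the ratio of this pair is the pattern the values below turn on. The 250 bases before a RefSeq start site are given 5′ to 3′ on the gene's strand, in GRCh38.p14, with capitals for the GC box GGGCGG, the CCAAT box CCAAT, the ETS core CCGGAAG and the TATA box TATAAA, searched on both strands, none of which is part of another. The GATAD2B sequence lies at chr1:153922973-153923222 (- strand) and the first of 2 GATAD2A start sites at chr19:19385593-19385842 (+ strand).
GATAD2B: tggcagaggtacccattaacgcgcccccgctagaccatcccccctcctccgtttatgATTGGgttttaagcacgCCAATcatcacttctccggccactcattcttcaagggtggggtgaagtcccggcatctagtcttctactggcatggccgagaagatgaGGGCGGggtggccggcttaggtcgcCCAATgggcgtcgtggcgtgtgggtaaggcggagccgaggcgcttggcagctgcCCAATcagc
GATAD2A: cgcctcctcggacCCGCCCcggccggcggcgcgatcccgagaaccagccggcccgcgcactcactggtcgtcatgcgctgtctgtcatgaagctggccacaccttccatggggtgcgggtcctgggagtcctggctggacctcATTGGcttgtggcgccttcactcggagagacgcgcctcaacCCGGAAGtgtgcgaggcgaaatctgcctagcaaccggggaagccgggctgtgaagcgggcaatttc
The GATAD2B window held 4 CCAAT boxes, 1 GC box and 17 CpGs, and the GATAD2A window held 1 CCAAT box, 1 GC box, 1 ETS core and 25 CpGs. Over 15 start sites of the 10 genes, 13 held a GC box, 8 a CCAAT box, 3 an ETS core and 0 a TATA box, while 42.6%, 32.0%, 8.52% and 10.7% of all 35116 RefSeq promoter windows of the same length did. The member windows held a median of 30 CpGs, with 3 to 48, against a median of 11 over all windows. These matches are descriptions of the sequence and not evidence of binding.

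GATAD2B (chr1:153761506-153895836, - strand) lay above WT in the CHD7 knockout libraries and below it after HERVH knockdown. It was at 103.2 and 89.6 CPM in WT, 140.1 and 141.7 CPM in the CHD7 knockout, 74.8 and 60.4 CPM in the knockdown and 90.6 and 95.2 CPM in the deleted cells. The 3 levels were separate, knockout above WT and WT above knockdown, with the deleted cells within the WT range. The log2 fold change was 0.55 in the knockout (SE 0.157, 95% interval 0.21 to 0.89, unadjusted p 0.00385, FDR 0.115), -0.51 in the knockdown (SE 0.158, 95% interval -0.85 to -0.17, unadjusted p 0.0063, FDR 0.111) and -0.05 in the deleted cells (95% interval -0.39 to 0.28). After correction for GC content the same changes passed the FDR of 0.05, with 0.56 (FDR 0.0149) in the knockout and -0.50 (FDR 0.0243) in the knockdown. The knockout change also passed in the fit of 4 libraries (FDR 0.011), with sizes from 0.45 to 0.68 when a library was left out. The knockdown change did not pass in the fit of 4 libraries (FDR 0.351). It was -0.73 without knockdown replicate 1 and -0.37 without replicate 2.

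GATAD2A (chr19:19496635-19619741, + strand) was at 264.3 and 288.7 CPM in WT, 277.5 and 230.5 CPM in the CHD7 knockout, 304.1 and 289.3 CPM after knockdown and 304.7 and 296.7 CPM in the deleted cells. Its log2 fold changes were small, -0.12, 0.10 and 0.12, and the knockdown value turned to -0.02 with GC correction and replicate block. The ratio of GATAD2A to GATAD2B CPM was 2.56 and 3.22 in WT, 1.98 and 1.63 in the CHD7 knockout, 4.07 and 4.79 in the knockdown and 3.36 and 3.12 in the deleted cells. Knockout and knockdown libraries fell on opposite sides of WT without overlap. The share of other gene pairs with such a ratio was not counted. In the knockout the 143 expressed neighbors of GATAD2B within 5 Mb had a median difference from WT of 0.523, beside 0.551 for GATAD2B. Per exon length GATAD2B made 21.9% ± 2.77 (SD, n = 2) of the pair in WT, 30.9% ± 2.97 in the knockout, 15.4% ± 1.51 in the knockdown and 19.9% ± 0.848 in the deleted cells.

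**Figure D3:**
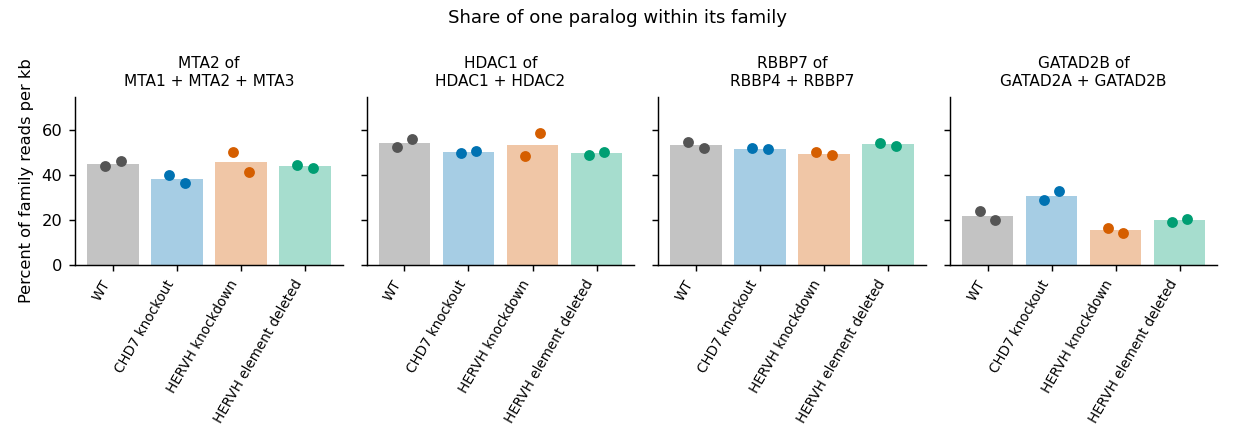
Share of MTA2, HDAC1, RBBP7 and GATAD2B in the summed reads per kilobase of their paralog family, in percent, with a bar for the group mean and a point for each of the 2 libraries. GATAD2B made 30.9% of its pair in the CHD7 knockout and 15.4% after HERVH knockdown, while RBBP7 stayed between 49.7% and 53.8% in every group.

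MBD3 (chr19:1573595-1592864, - strand), the subunit that distinguishes this form of NuRD from the one with MBD2, had the lowest level per exon length in every group but the knockdown, where GATAD2B was lower, and the widest spread between replicates on the log2 scale. It was at 51.3 and 73.6 CPM in WT, 53.7 and 39.5 CPM in the CHD7 knockout, 64.3 and 125.9 CPM in the knockdown and 42.5 and 52.7 CPM in the deleted cells. Knockdown replicate 2 stood above all other libraries. The knockdown log2 fold change was 0.60 (SE 0.277, 95% interval 0.01 to 1.20, unadjusted p 0.0476 and FDR 0.258 by edgeR). It was 0.96 without knockdown replicate 1 but 0.04 without replicate 2, so that it rested on replicate 2. After GC correction it was 0.37 (FDR 0.135). In the knockout and deleted cells the values were -0.42 and -0.39, with intervals from -1.02 to 0.18 and from -0.99 to 0.21.

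The base composition of a gene moved with the difference between the knockdown replicates. Among genes with a mean log2 CPM over 2, cut by exon GC into 5 bins of 2495 to 2497 genes, the median of replicate 2 minus replicate 1 went from -0.36 in the lowest bin to 0.66 in the highest. MBD3, with 63.0% GC in its exons, differed by 0.97 and MTA1, with 64.8%, by 0.53. HDAC2, with 36.5%, differed by -0.39. GATAD2B, with 48.0%, differed by -0.31, and the median of its bin was 0.02. Across the 10 members the Spearman correlation of GC content with this difference was 0.636, and the points share the same libraries.

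**Figure D4:**
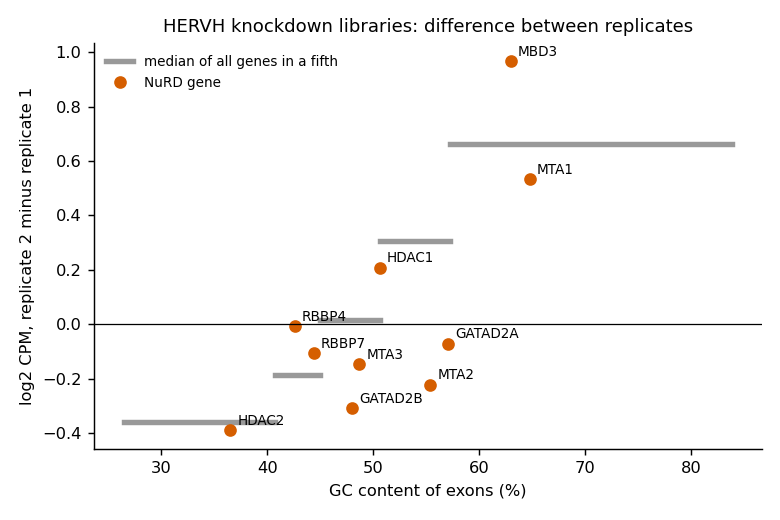
Difference in log2 CPM between HERVH knockdown replicates 2 and 1 against GC content of the exons in percent, for the 10 NuRD genes (points) and as the median of all genes in each of 5 bins of GC content (grey bars). The medians climb from -0.36 to 0.66, and MBD3 and MTA1 lie at the high end.

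The conditions were also compared with each other in the same edgeR fit. HERVH knockdown differed from CHD7 knockout for 2 of 10 members at an FDR below 0.05, where 9.44% of all genes did. GATAD2B was lower in the knockdown by a log2 fold change of -1.06 (SE 0.159, 95% interval -1.40 to -0.72, FDR 0.00151), which passed the FDR of 0.05 in every alternative tried. MBD3 was higher by 1.03 (SE 0.280, 95% interval 0.42 to 1.63, FDR 0.0365). This call was lost without knockdown replicate 2 (0.46), without either knockout library and in the fit of 4 libraries (FDR 0.0849). Between knockdown and deleted cells 0 of 10 members passed, where 1.33% of genes did, and MBD3 came nearest with 0.997 (FDR 0.0919), beside GATAD2B and RBBP7 with unadjusted p-values of 0.0122 and 0.0221. Between CHD7 knockout and deleted cells 0 of 10 passed, where 2.66% did, and GATAD2B came nearest with 0.60 (FDR 0.0649), beside MTA2 with -0.39 (unadjusted p 0.0237). DESeq2 called 1 member in each of these last comparisons, MBD3 (FDR 0.0163) and GATAD2B (FDR 0.0400). Both were among the members that passed after GC correction (FDR 0.0268 and 0.00856). The share of all genes called was not counted for DESeq2 or the GC correction. Without knockdown replicate 1 MBD3 was at 1.34 against the deleted cells, and without replicate 2 it was at 0.43.

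GATAD2B and MTA1 lie in stretches of chromosome 1 and chromosome 14 that had been noticed for shifting in the CHD7 knockout, so each member was set beside the genes around it. For the 143 expressed genes within 5 Mb of GATAD2B, the median difference from WT in log2 CPM was 0.59 in knockout replicate 1 and 0.48 in replicate 2. GATAD2B itself stood at 0.54 and 0.56. Of these neighbors 99.3% were higher than WT, against 44.9% of all expressed genes, and 44.8% were at or beyond the value of GATAD2B. Its difference from WT in the CHD7 knockout was thus of the size of the difference around it. After HERVH knockdown the neighbors had medians of -0.01 and 0.17 and GATAD2B stood at -0.36 and -0.67, with 4.2% of neighbors at or below its mean. In the deleted cells the neighbors and GATAD2B were at -0.04 and -0.05.

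**Figure D5:**
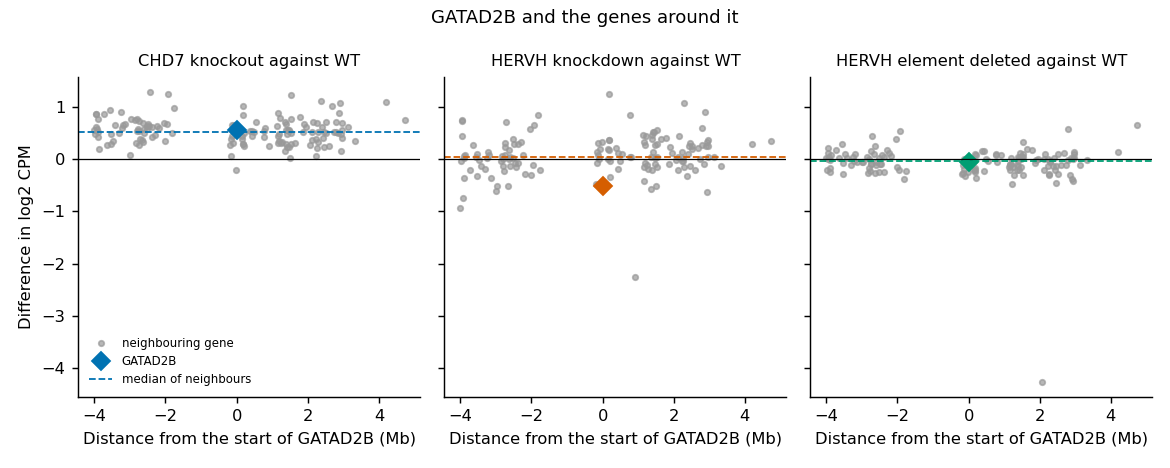
Difference from WT in log2 CPM, as the mean of 2 replicates, for GATAD2B (diamond) and its 143 expressed neighbors (points) by distance in Mb from the start of GATAD2B, with the neighbors' median as a dashed line. In the CHD7 knockout GATAD2B lies on the median of 0.52, and after HERVH knockdown it lies below the median of 0.05.

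Around MTA1 the median shift was smaller than around GATAD2B, but it was uneven. The 42 expressed neighbors of MTA1 within 5 Mb had medians of -0.11 and -0.19 in the knockout replicates, and MTA1 stood at -0.17 and -0.12. Within 2 Mb the 28 expressed neighbors had a median of -0.23 by the mean over replicates. Of these 14.3% were higher than WT and 71.4% were at or below the value of MTA1. The lowest were CRIP2 at -2.645 and AHNAK2 at -1.183. The mean over replicates gave a neighbor median of -0.16, against -0.15 for the 121 neighbors of GATAD2A and -0.17 for the 135 of MBD3 on chromosome 19. Of the neighbors of MTA1 19.0% were higher than WT, against 44.9% of all expressed genes. After GC correction the neighbors of MTA1 were at -0.07, with 23.8% higher than WT against 50.5% of all genes, and MTA1 was at 0.05. The neighbors of GATAD2A were then at -0.06 with 41.3% higher, those of MBD3 had 50.4% higher, and those of GATAD2B remained at 0.58. The knockdown replicates disagreed around MTA1, with neighbor medians of -0.05 and 0.62 and MTA1 at -0.42 and 0.12. The neighbors of MBD3 split likewise (-0.09 and 0.56), and those of MTA3 did not (-0.10 and -0.07). After GC correction the knockdown medians around MTA1 were 0.09 and 0.15, with MTA1 at -0.186 and -0.515.

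The GapmeR sequences used against HERVH were compared with the members' transcripts, because a close match would bear on the knockdown values. They are the antisense oligonucleotides of 16 bases listed by the study, written 5′ to 3′.
SHHERVH_3: ggaagatttgggacga
SHHERVH_4: attgggacctagctcg
SHHERVH_12: atgtggagtgggtagc
No member had a full match to any of them in its spliced transcripts. The closest were MTA3 with 3 mismatches to SHHERVH_12, a match as good as in 2.44% of 14862 protein-coding genes, GATAD2A with 4 to SHHERVH_3 (18.3% of genes) and MBD3 with 4 to SHHERVH_12 (21.8%). GATAD2B had 5 mismatches to each, and at least 55% of genes had as few or fewer. Introns were not searched.

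Genes that complete NuRD or share its subunits were taken from lists of other subunits and complexes. Of 15 further NuRD and associated genes, 1 rose in the CHD7 knockout at an FDR below 0.05 and none passed in the other comparisons. At that FDR 1.19% of all genes tested were up and 0.613% down in the knockout, and 0.618% up and 1.53% down in the knockdown. It was CHD3, a remodeler that can replace CHD4, at 76.0 and 73.0 CPM in WT, 115 and 125 CPM in the knockout, 51.6 and 65.8 CPM in the knockdown and 78.7 and 73.2 CPM in the deleted cells. Its log2 fold change in the knockout was 0.69 (SE 0.162, FDR 0.0460), while its 107 neighbors on chromosome 17 had a median of -0.05. Leaving out any WT, knockout or deleted library ended this call, with sizes from 0.65 to 0.76. CHD4, the main remodeler of the complex, was between 612 and 662 CPM in all 8 libraries. MBD2, which binds methylated CpG and replaces MBD3, was at 31.8 and 27.2 CPM in WT and 23.4 and 12.7 CPM after knockdown. Its log2 fold change there was -0.70 (SE 0.251, FDR 0.156), which became -1.27 without knockdown replicate 1 and -0.34 without replicate 2.

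Among 10 tested genes of the CoREST and MiDAC complexes, which also use HDAC1 and HDAC2, 1 rose in the knockout. RCOR3, a CoREST scaffold on chromosome 1, went from 38.9 and 39.7 CPM in WT to 84.4 and 93.6 CPM, with a log2 fold change of 1.18 (SE 0.259, FDR 0.0352). Its 44 neighbors within 5 Mb had a median of 0.62. The call was lost when a WT or knockout library was left out and with the stricter filter on expression (FDR 0.0617). Of 9 other zinc-dependent deacetylases, HDAC9, a class IIa enzyme, passed in both directions. It was at 21.9 and 20.3 CPM in WT, 36.2 and 37.9 CPM in the knockout (0.81, SE 0.188, FDR 0.0453) and 11.2 and 13.0 CPM in the knockdown (-0.81, SE 0.195, FDR 0.0486). Both calls were lost when a WT, knockout or deleted library was left out, and the knockdown call also in the fit of 4 libraries (FDR 0.206). By edgeR 0 of 13 Sin3 genes, 0 of 9 tested PRC2 genes, 0 of 6 CAF-1, NURF and HAT1 genes and 0 of 6 methyl-CpG binding domain genes passed in any comparison with WT. At an unadjusted p below 0.05 by edgeR the Sin3 list held 1, 4 and 0 genes in the knockout, knockdown and deleted cells, the PRC2 list 0, 1 and 1, the methyl-CpG list 0, 2 and 0, and the CAF-1 list 0 in each. The CoREST and MiDAC list held 3 higher and 1 lower in the knockout and 2 higher and 3 lower in the knockdown. The further NuRD list held 2 higher and 0 lower in the knockout and 2 higher and 1 lower in the knockdown. The deacetylase list held 1 higher and 0 lower in the knockout and 1 higher and 1 lower in the knockdown. Of all genes tested 10.9%, 19% and 2.63% had such a p in the 3 conditions.

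The genes whose log2 CPM followed MTA1 and GATAD2B most closely over the 8 libraries were found by Pearson correlation among 11499 expressed protein-coding genes. For MTA1 they were HAP1 (0.985), PYCR1 (0.983), KYAT1 (0.982), ADAMTS7 (0.976) and SOX3 (0.975), against a median of 0.075 over all genes. Their exons held 55.8% to 64.4% GC. For GATAD2B they were MPZL1 (0.990), FMN1 (0.989), ERVMER34-1 (0.988), SRGAP2 (0.986) and RALGPS2 (0.986), against a median of -0.05, and MPZL1, SRGAP2 and RALGPS2 lie on chromosome 1 as GATAD2B does. These values share the same libraries and describe the pattern only.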

How the data were processed

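RNA-seq of 8 H9 libraries, 2 in each of 4 groups set by the sample labels, was used. The authors made strand-specific libraries after rRNA depletion, aligned reads to hg19 with STAR and deposited unnormalized HTSeq read counts per gene. Versions and the strand setting are not given in the sources used here. Rows naming no gene (42.9% to 49.6% of all counts) were left out. Counts were scaled by TMM and tested in edgeR 4.0.16 (R 4.3.3) by its quasi-likelihood test, with group as the factor, 4 residual degrees of freedom and Benjamini-Hochberg FDR over 23474 genes kept by filterByExpr. Log2 CPM had a prior count of 2. The 95% intervals come from that fit. Gene positions, lengths and GC content came from GENCODE on GRCh37 and promoters from RefSeq. DESeq2 1.42.0, RLE scaling, other filters, a loess GC correction (span 0.3), the replicate number as a block, fits of 4 libraries and each library left out were alternatives. A fit without a library left 1 library in that group, so the spread came from the other groups. Whether a gene passed in such a fit rested on that spread, and sizes are given without an FDR. The fit was tested on simulated counts with known changes. At an FDR below 0.05 it recovered 64 of 99 genes changed 2-fold and 100 of 101 changed 4-fold, with 6 false calls. Smaller changes were not simulated.

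The members and lists were chosen with earlier results of these data known. The text names all 10 members, CHD7, genes of the complex and enzyme lists with an FDR below 0.05 against WT, CHD4, CHD3, MBD2, and the 5 expressed protein-coding genes most correlated with MTA1 and with GATAD2B. Marker genes were named beside their summed levels. Tables and figures were made in Python 3.11.15 (pandas 2.3.3; numpy 2.4.6; drawing in matplotlib 3.10.9).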

Additional observations from a re-analysis of the deposited data

Results flagged for a closer look

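GATAD2B differed between HERVH knockdown and CHD7 knockout by a log2 fold change of -1.059 (FDR 0.00151 by edgeR), because it lay above WT in both knockout libraries and below WT in both knockdown libraries. In the knockout its 143 expressed neighbors within 5 Mb had a median difference from WT of 0.523, beside 0.551 for GATAD2B. In the knockdown these values were 0.046 and -0.516. MBD3 differed between the same conditions by 1.025 (FDR 0.0365), a value carried by HERVH knockdown replicate 2 at 125.9 CPM. No group had enough samples for a check of single libraries that stand apart.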

How the results depend on the processing

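No member reached the DEG thresholds against WT in any alternative. The share of all genes called was counted only in the main fit. The numbers of members called in the alternatives therefore cannot be set beside the share of all genes in the same fit. At an FDR below 0.05 the CHD7 knockout called 1 member with GC correction, 1 with GC correction and replicate block and 2 in the fit of 4 libraries. HERVH knockdown called 1 with GC correction and 1 with GC correction and replicate block. Calls changed with the library left out, but such a fit held 1 library in a group, so its counts are not given. The replicate block alone left 0 members called in each comparison with WT and changed no other call; replicate 1 minus replicate 2 correlated at -0.233 between WT and knockout, 0.286 between WT and knockdown and 0.427 between WT and deleted cells, and with 2 pairs a comparison the numbers were not taken to pair samples. A crossed block, chosen after seeing the data, called 3 members in the knockout.

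Knockdown against deleted cells called 1 member by DESeq2, 1 without a low-count filter, 2 with GC correction and 2 with GC correction and block. Knockout against deleted cells called 1 by DESeq2, 1 without the filter, 1 with GC correction, 1 with GC correction and block and 2 in the fit of 4 libraries. Knockdown against knockout had 2 DEGs by DESeq2 and 0 in the fit of 4 libraries, and called 1 in that fit.

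The members' median moved to -0.044 by RLE scaling and by DESeq2, -0.039 with the stricter filter, -0.024 with GC correction and -0.023 with GC correction and block in deleted cells. With a library left out it ranged from -0.122 to 0.009 in the knockout, from -0.242 to -0.122 in the knockdown and from -0.07 to 0.026 in deleted cells. Neighbors of MTA1 in the knockout were at -0.071 with GC correction and -0.232 within 2 Mb.

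Some small values changed sign. In the knockout MTA3 became 0.002 with the stricter filter, MTA1 0.046, HDAC2 -0.032 and RBBP4 -0.003 with GC correction, and 0.052, -0.032 and -0.002 with the block added. GATAD2A in the knockdown became -0.015 and MTA1 in deleted cells 0.044 and 0.046. Leave-one-out ranges that crossed 0 were MTA3 -0.042 to 0.012, RBBP7 -0.174 to 0.054, HDAC2 -0.119 to 0.173, RBBP4 -0.028 to 0.092, GATAD2A -0.255 to 0.028 in the knockout, and MTA2 -0.249 to 0.017, MTA1 -0.425 to 0.063 in the knockdown, and RBBP7 -0.137 to 0.084, GATAD2B -0.151 to 0.077, HDAC2 -0.003 to 0.282 in deleted cells. The cause of these changes was not tested. With 2 libraries a group, members whose interval included 0 could not be told from no change.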
